A study of Rattus norvegicus with 115 samples.

Results

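Leukocyte RNA of rat mammary tumours was compared between rats given an antibody against PD-L1 together with a TGFBR1 inhibitor and rats given the inhibitor alone, which asks what the antibody adds to the inhibitor. No gene was called different between these groups, and the values of single rats ranged widely within each of them. The leukocyte libraries were chosen by their level of Ptprc, which encodes the pan-leukocyte protein CD45: columns of the count table with at least 300 CPM (counts of a gene per 1000000 counts of the library) were taken. These were 8 of 21 columns of the combination, from 6 rats (P23, P31, P33, P34, P35 and P36), and 7 of 15 columns of the inhibitor, from 5 rats (P16, P17, P19, P21 and P22). Together they make 15 of the 44 leukocyte columns in the whole table. In these groups the lowest selected column held 957 CPM of Ptprc and the highest column not selected held 66.2 CPM. The labels list the same numbers of CD45 samples, 8 and 7.

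All of these rats were virgin Sprague Dawley animals that carried tumours induced by N-nitroso-N-methylurea (NMU), a carcinogen given at 50 mg/kg by 1 to 3 intraperitoneal injections at an age of 35 to 53 days. Treatment began once tumours could be felt, with LY2157299 (galunisertib, a small-molecule inhibitor of the TGF-beta type I receptor; group LY) or with LY2157299 and an anti-PD-L1 monoclonal antibody (group PDL1+LY). Rats given the antibody alone (PDL1, 5 rats) or vehicle (8 rats) entered the statistical fit and are given where a result needs them. The columns of a rat were summed, because treatment was given to the rat, so n is 5 and 6 in the main comparison. Fewer rats remain where a measurement is missing and in settings that leave out rats or libraries.

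TGF-beta is a cytokine that binds a type II receptor, which then activates the type I receptor TGFBR1, and SMAD proteins carry the signal to the nucleus. In tumours it restrains cytotoxic lymphocytes and favours regulatory T cells and matrix production. PD-L1, encoded by Cd274, is a surface ligand on tumour and myeloid cells that silences T cells through PD-1, encoded by Pdcd1. Blocking both is a way to release T cells from 2 separate restraints, so genes of T cells, cytotoxicity, antigen presentation and the TGF-beta pathway were followed here.

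The libraries held T cell genes at high levels in every rat, beside genes of macrophages. Cd3e, a signalling subunit of the T cell receptor, stood at 684 to 1449 CPM in the 11 rats, and the 20 T cell genes together summed to 5087 to 10421 CPM. The 18 macrophage genes summed to 1212 to 4190 CPM on LY and 847 to 11395 CPM on the combination. Total counts were 10968936 to 34921487 per rat, at which 3 counts correspond to 0.0859 to 0.274 CPM. The deposited sample table gives batch 2 or batch 3 for each tumour, and both groups hold both: P16, P21, P31 and P34 are of batch 2, P17, P23, P33, P35 and P36 are of batch 3, and P19 and P22 have tumours in each. In batch 2 leukocyte columns 57 genes were at least 16-fold lower than in batch 3. Among these were Pdcd1, Tnf, RT1-DMa, RT1-DMb, Tap2 and Hsp90aa1 of the lists used here, so their values in a rat follow the batch. Other cell types left traces: luminal epithelial genes summed to 363 to 1146 CPM on LY and 376 to 1007 CPM on the combination. None of the 16 genes was at 0 in all rats. Gata3, which T cells also express, alone held 178 to 694 CPM on LY and 244 to 698 CPM on the combination. These sums are thus not a measure of epithelial RNA alone. Krt19, a keratin of luminal cells, held 14.2 to 110 CPM on LY and 16.4 to 158 CPM on the combination. In bulk RNA fewer cells of a type and less RNA per cell cannot be told apart.

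None of 11932 genes passed an adjusted p of 0.05 in the comparison of PDL1+LY with LY (0% called, edgeR quasi-likelihood test with Benjamini-Hochberg adjustment), and the smallest adjusted p was 0.9995. DESeq2 and limma voom on the same sums also called 0 genes. At an unadjusted p under 0.05 there were 69 genes higher on the combination (0.578% of those tested) and 94 lower (0.788%), and DESeq2 had 235 and limma voom 166 in both directions together. The median log2 fold change over all genes was 0.01. The absence of calls does not show that leukocytes of both groups were alike. The median standard error was 0.35 on the log2 scale, and 52.3% of genes had a 95% interval that lay wholly within a 2-fold change in either direction. For 78.98% the interval lay within a 4-fold change, and the others allow larger differences.

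**Figure D1:**
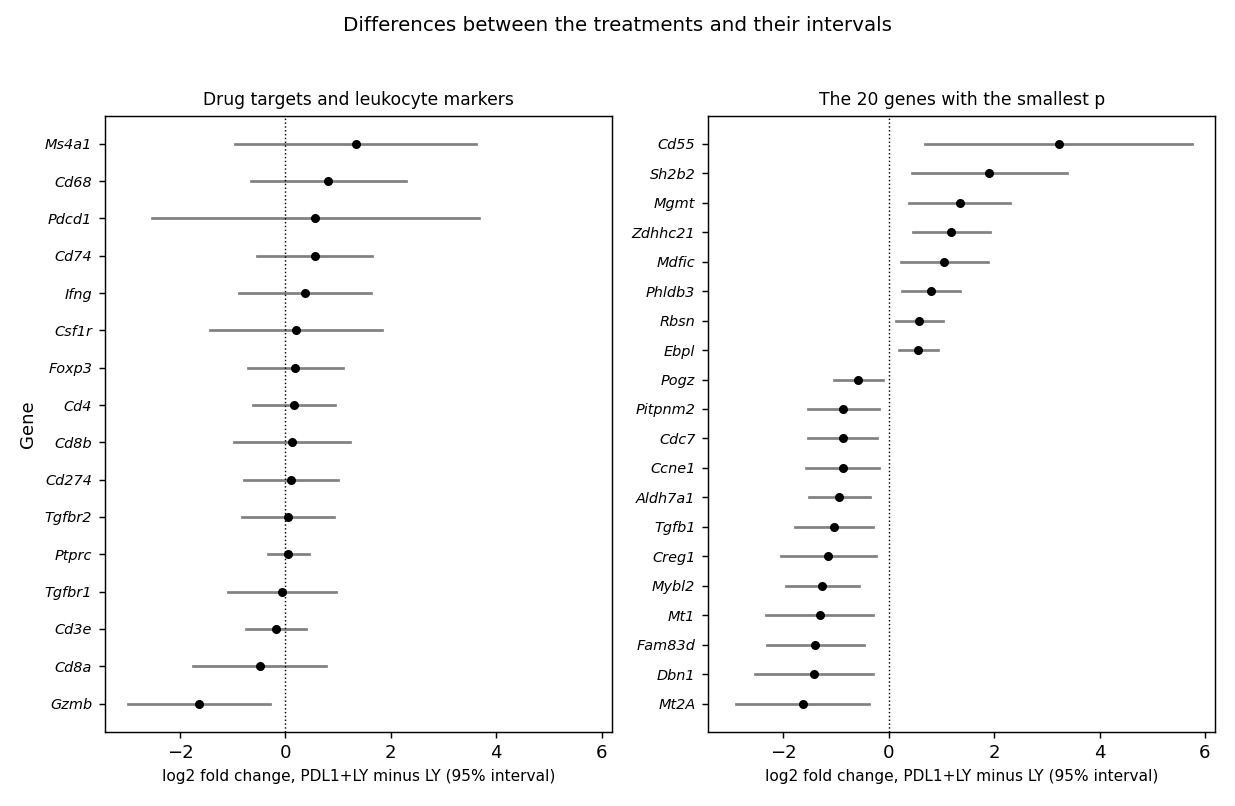
Log2 fold change of PDL1+LY minus LY (points, x axis) with its 95% interval (lines) for drug targets and leukocyte markers (left) and for the 20 genes with the smallest p (right), over 6 and 5 rats. Among the genes on the left, only Gzmb has an interval that leaves out 0, and the intervals of Pdcd1 and Ms4a1 span several log2 units.

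Among the TGF-beta ligands, Tgfb1 was lower in every rat on the combination than in every rat on LY, although it did not pass the test over all genes. Tgfb1 encodes the main TGF-beta of immune cells. It stood at 105.004, 128, 107.5, 245 and 146 CPM in P16, P17, P19, P21 and P22. Combination rats had 65.5, 67.9, 94.4, 37.5, 104.8 and 57.7 CPM in P23, P31, P33, P34, P35 and P36. The groups thus touched at P35 and P16, and P21 and P34 were the extremes. The log2 fold change was -1.04 ± 0.36 (SE, 95% interval -1.78 to -0.29, unadjusted p = 0.00815, adjusted p = 0.9995, edgeR). Groups did not overlap for 11 of all genes (0.0922%), and Tgfb1 was the only one of them in the lists followed here. How many genes would separate by chance was not tested, so this count does not show an excess. It was lower on the combination in all 27 other settings, by -1.35 to -0.31. Rats on antibody alone had 84.1 ± 36.1 CPM (SD, n = 5) and vehicle rats 109.05 ± 63.5 CPM (SD, n = 8).

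The receptors of the ligand overlapped fully between the groups. Tgfbr1, the target of the inhibitor, was at 28.4 ± 15 CPM (SD, n = 5) on LY and 27.1 ± 17.7 CPM (SD, n = 6) on the combination, with a 95% interval of the log2 fold change from -1.09 to 0.95. For Tgfbr2, the type II receptor, that interval ran from -0.82 to 0.93. P33 held 8.66 CPM of Tgfbr2, while the other 10 rats held 28.1 to 132 CPM. Smad3, a transducer of the signal, stood at 41.5, 96.8, 50.9, 163 and 64.7 CPM on LY (P16 to P22 in the order above). On the combination its lowest, median and highest values were 28.3, 40.2 and 123 CPM, and the log2 fold change was -0.67 ± 0.40 (SE, unadjusted p = 0.108, edgeR). This fold change was 0.58 in tumours listed in the CD45 fraction alone, which leave P16 and P19 against P23, P31 and P35. Of 17 ligands, receptors, SMADs and activators tested, 11 were below 0 and 6 above, with a median log2 fold change of -0.07, which was 0.20 without P21. The 20 genes that respond to TGF-beta split into 11 above and 9 below 0, with a median of 0.05. That split did not hold when rats were left out: 16 were above 0 (median 0.30) without P21, and 7 (median -0.13) without P35. In batch 2 alone 3 were above 0, with a median of -0.50.

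Checkpoint genes showed no difference that passed the test. Cd274, which encodes the target of the antibody, was at 51.6, 44.2, 33.3, 72.1 and 51.2 CPM on LY. Its lowest, median and highest values on the combination were 31.2, 43.2 and 92.8 CPM, and the interval of the log2 fold change was -0.78 to 1.00. The ranges overlapped fully, with P33 and P35 on top. Pdcd1 had no count in P16, P21, P31 and P34, the 4 rats with batch 2 tumours alone, so its values over all rats follow the batch. In batch 3 libraries it was at 14 to 29 CPM on LY (P17, P19 and P22) and 17.4 to 33.6 CPM on the combination (P23, P33, P35 and P36), with a log2 fold change of 0.06. Lag3, an inhibitory receptor of activated T cells, stood at 824 and 1136 CPM in P16 and P17 and at 273 to 351 CPM in the other LY rats. The combination rats lay between 245 and 446 CPM. The log2 fold change of Lag3 was -0.71 ± 0.39 (SE, unadjusted p = 0.0822, edgeR), and without P17 it was -0.30. Of 14 checkpoint genes tested 10 were above 0, with a median of 0.06. Without P33 5 of 14 were above 0 with a median of -0.16, and by limma voom 4 of 14 with a median of -0.17.

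T cell identity genes were at a like level in both groups over all rats. Their mean log2 CPM was 7.90 ± 0.20 (SD, n = 5) on LY and 7.92 ± 0.39 (SD, n = 6) on the combination, and 12 of 20 genes were above 0 with a median log2 fold change of 0.06. In tumours listed in the CD45 fraction alone 18 of 20 were above 0, with a median of 0.39. In batch 2 alone 18 of 20 were above 0 (median 0.27), and in batch 3 alone 7 of 20 (median -0.04). Cd4, the helper co-receptor, had an interval of -0.61 to 0.94 and was lowest in P17, at 70.8 CPM. Foxp3, the master regulator of regulatory T cells, stood at 115, 116, 153, 346 and 187 CPM on LY. Combination rats had 134, 93.4, 405, 101.1, 348 and 176 CPM in P23 to P36. High Foxp3 was found in both groups, in P21 and in P33 and P35. The interval of its log2 fold change was -0.71 to 1.09. The 9 regulatory T cell genes had a median of -0.01, with 4 above and 5 below 0. That sign held in 11 of 27 other settings, and in batch 3 alone the median was 0.36. Il7r, the interleukin-7 receptor of naive and memory T cells, was at 208 ± 96.1 CPM (SD, n = 5) on LY and 387 ± 214 CPM (SD, n = 6) on the combination. Its log2 fold change was 0.89 (unadjusted p = 0.0246, edgeR) and 0.54 without P33.

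**Figure D2:**
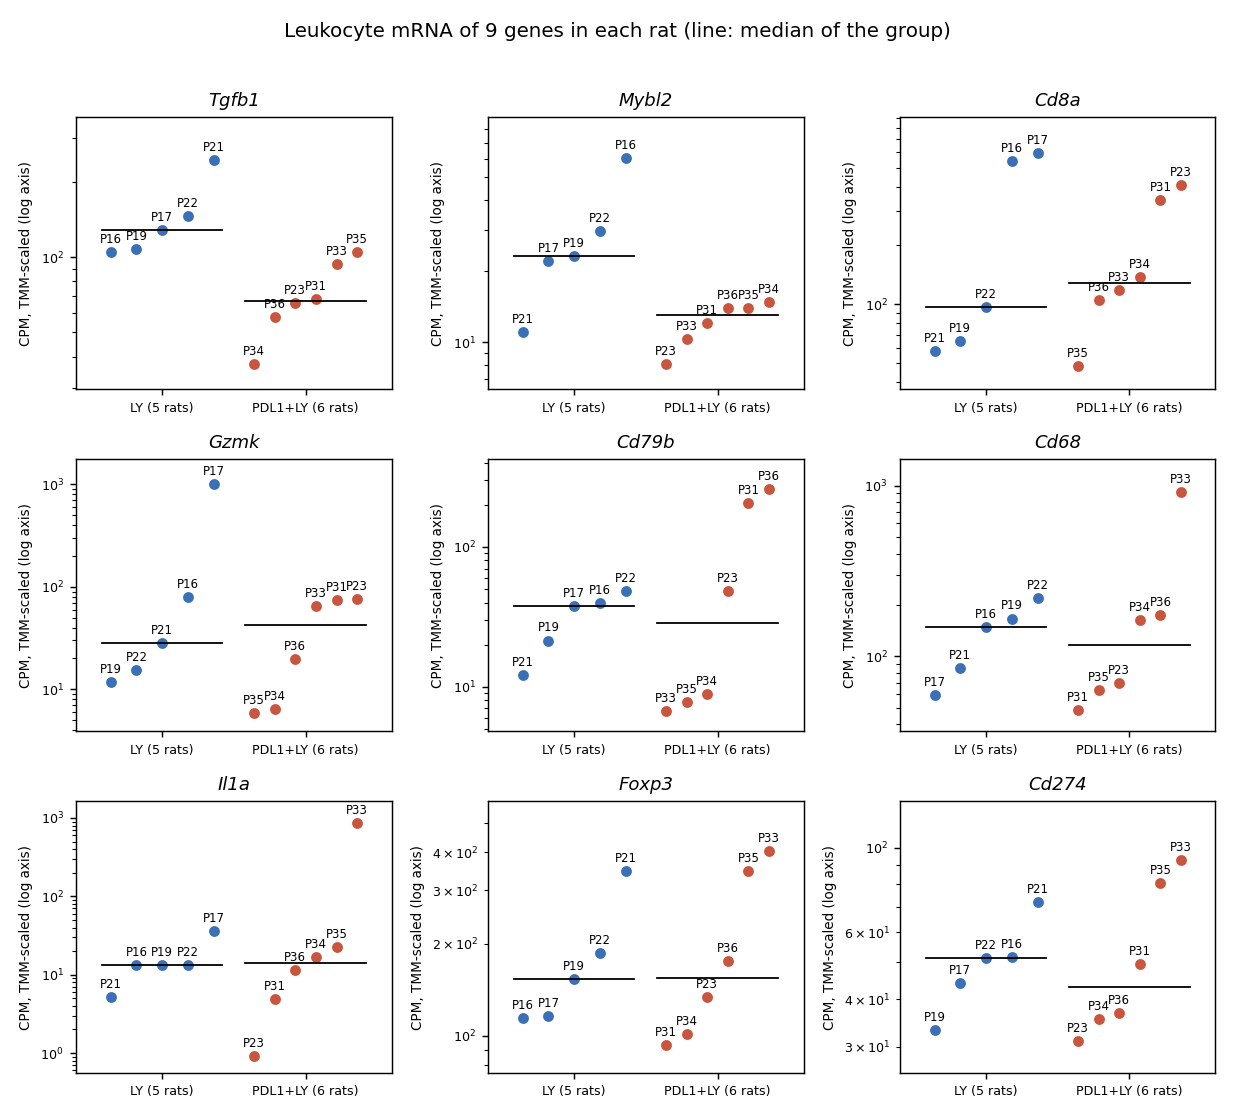
Level of 9 genes in the leukocytes of each rat (points, CPM scaled by TMM, log axis) on LY and PDL1+LY, with the group median as a line. Tgfb1 is the only one of the 9 in which the groups do not overlap, and single rats such as P17 for Gzmk and P33 for Il1a and Cd68 lie far from the rest.

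Cytotoxic genes separated rats rather than treatments. Cd8a, the co-receptor of cytotoxic T cells, was at 542 and 593 CPM in P16 and P17 and at 64.9, 57.5 and 96.4 CPM in P19, P21 and P22. On the combination it was at 406 and 341 CPM in P23 and P31 and at 119, 138, 48.1 and 104.7 CPM in P33, P34, P35 and P36. Each treatment thus had 2 rats with high Cd8a and others with low Cd8a. The median was 96.4 CPM on LY and 128 CPM on the combination, whereas the log2 fold change was -0.49 (95% interval -1.75 to 0.78). Gzmk, a granzyme of effector and memory CD8 T cells, reached 1006 CPM in P17 against 79.4 CPM in P16 and 11.8 to 28.2 CPM in the other LY rats. The combination rats lay between 5.86 and 75.6 CPM. The log2 fold change of Gzmk was -2.47 ± 1.22 (SE), and without P17 it was 0.29.

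Gzmb and Ccl5 were also highest in P17. Gzmb, a granzyme that kills target cells, was at 44.9 CPM in P17, 8.80 CPM in P16 and 2.25 to 2.88 CPM in P19, P21 and P22. On the combination its lowest, median and highest values were 1.6, 4.31 and 6.58 CPM. The median on the combination was above that on LY, 2.88 CPM, while the log2 fold change was -1.64 ± 0.65 (SE, unadjusted p = 0.0187, edgeR) and -0.06 without P17. Ccl5, a chemokine of cytotoxic cells, reached 2496 CPM in P17, and its log2 fold change of -1.56 became 0.47 without that rat. Of 15 cytotoxic and NK genes tested, 13 were below 0 (48.9% of all genes were) with a median of -0.90. Without P17 8 of 15 were below 0 with a median of -0.06, and without P16 10 of 15 with a median of -0.57. In batch 2 alone, which leaves P17 out, the median was -0.30, and in batch 3 alone it was -0.66. Neither of the 2 genes above 0 was high in P17. Cst7, which encodes cystatin F of cytotoxic and myeloid cells, was lowest in P17 at 92.5 CPM and highest in P33 at 826 CPM, and its log2 fold change of 0.64 became -0.04 without P33. Ifng, the interferon released by these cells, had a log2 fold change of 0.37 (95% interval -0.88 to 1.62). It was at 1.25 CPM in P33 and at 21.3 to 62.7 CPM in the other 10 rats. Among LY rats it was highest in P16, at 52.4 CPM, and stood at 23 CPM in P17.

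B cell genes were high in 2 of the combination rats. Cd79b, a chain of the B cell receptor complex, stood at 39.5, 38, 21.4, 12.1 and 48.1 CPM on LY. On the combination it was at 207 CPM in P31 and 261 CPM in P36, at 48.4 CPM in P23, and at 6.68, 8.84 and 7.78 CPM in P33, P34 and P35. The combination rats thus lay both above and below the LY range. The log2 fold change was 1.501 ± 1.005 (SE, 95% interval -0.58 to 3.58). Of 13 B cell genes 12 were above 0 (51.1% of all genes were), with a median log2 fold change of 1.26, which was 0.79 without P31 and 0.59 without P36. The mean log2 CPM over the list had the other sign, at 3.35 ± 0.58 (SD, n = 5) on LY and 3.23 ± 2.21 (SD, n = 6) on the combination. In the libraries of tumours that the labels list in the CD45 fraction alone, which leave P16 and P19 against P23, P31 and P35, 12 of 13 B cell genes were below 0, with a median of -0.94. Without the 4 libraries of both groups with counts in over 14000 genes, which include tumours T2 and T3 of P31, the median of the B cell list was 0.73. The 8 plasma cell genes had a median of -0.12.

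Macrophage and inflammatory genes stood apart in rat P33. Cd68, a lysosomal protein of macrophages, stood at 148, 59.2, 166, 85.1 and 219 CPM on LY. On the combination it was at 915 CPM in P33 and at 48.6 to 173 CPM in the other 5 rats. Its log2 fold change of 0.82 (95% interval -0.66 to 2.29) became -0.38 without P33. Il1a, an inflammatory cytokine, was at 862 CPM in P33 and at 0.904 to 35.9 CPM in the other 10 rats, and its log2 fold change of 3.24 became -0.53 without P33. Ccl2, which recruits monocytes, was at 7935 CPM in P33 and at 12.9 to 400 CPM elsewhere. The remaining 5 combination rats therefore overlapped with the LY rats in all 3 genes.

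Counts over these lists moved in the same way. Of 16 inflammatory cytokine genes 13 were above 0 with a median of 0.82, and without P33 6 were above 0 with a median of -0.19. The 18 macrophage genes had a median of 0.31 with 13 above 0, and a median of -0.31 without P33. In the CD45-alone libraries, which leave P33 out, none of the macrophage genes was above 0 and their median was -1.35. The 21 chemokines had a median of 0.37, and of -0.58 without P33. For MHC class II presentation 12 of 13 genes were above 0 with a median of 0.47, against 7 of 13 and 0.01 without P33, and the median was -0.54 in batch 2 alone. Cd74, the invariant chain of MHC class II, stood at 4927 to 20889 CPM in the other 5 combination rats and at 50674 CPM in P33, while LY rats had 6943 to 21567 CPM. P33 was also the lowest rat for T cell genes, at a mean log2 CPM of 7.33. The part of cell composition in these values was not tested.

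**Figure D3:**
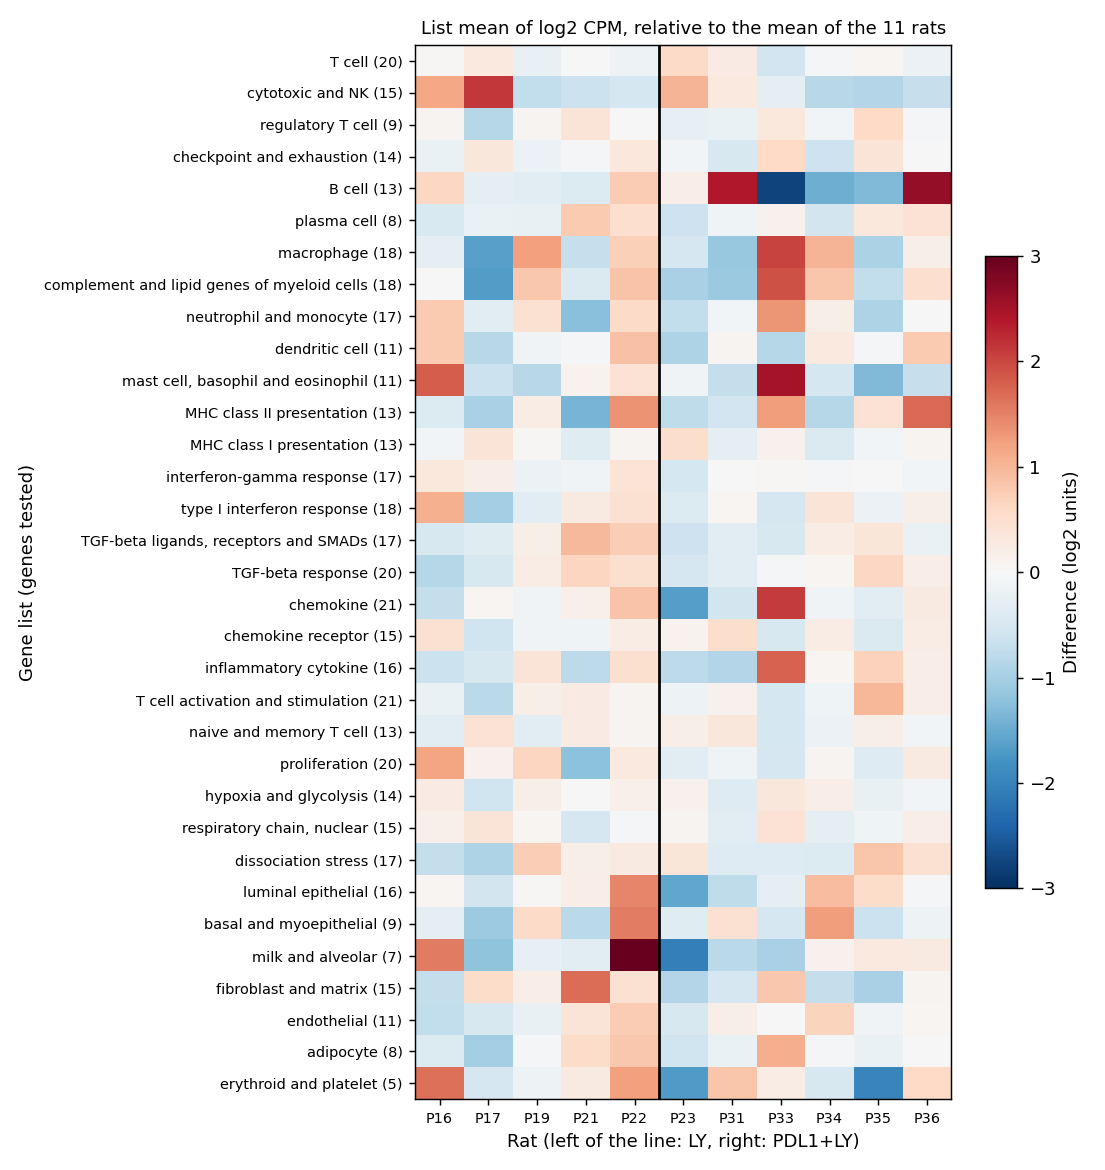
Mean log2 CPM of each gene list (rows, number of genes tested in brackets) in each rat (columns), as the difference from the mean of the 11 rats (colour, log2 units). Red and blue fall on single rats on both sides of the line, such as P17 for cytotoxic genes, P31 and P36 for B cell genes and P33 for macrophage genes.

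Cell cycle genes lay lower on the combination as a list. All 20 proliferation genes tested were below 0 (48.9% of all genes were), with a median log2 fold change of -0.61, and 3 of them (Ccna2, Ccne1 and Ccnb2) had an unadjusted p under 0.05 in this direction (0.788% of all genes did). Genes of the cell cycle move together, so these 20 are not independent. Ccna2, a cyclin of S phase and G2, was at 77.9, 25.4, 38.6, 3.04 and 25.6 CPM on LY. The combination gave 13.2, 19.8, 8.87, 22.5, 6.59 and 18.7 CPM. The groups overlapped through P21, the lowest of all rats, while the other 4 LY rats exceeded every combination rat. The log2 fold change was -1.19 ± 0.51 (SE, unadjusted p = 0.0289, adjusted p = 0.9995, edgeR). Mki67, the antigen Ki-67 of dividing cells, was at 61 ± 24.7 CPM (SD, n = 5) on LY and 46.5 ± 13.4 CPM (SD, n = 6) on the combination, with an interval of -1.18 to 0.40.

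The sign of the proliferation median did not depend on a single rat, but its size did. Leaving out each rat in turn gave medians of -0.82 (without P21) to -0.26 (without P16), with at least 19 of 20 genes below 0 each time. In batch 2 alone 18 of 20 genes were below 0 with a median of -0.47, and in batch 3 alone 20 of 20 with a median of -0.52. In the CD45-alone libraries the median was -1.20. Per rat, the list averaged a log2 CPM of 6.31, 5.25, 5.78, 3.91 and 5.43 on LY. On the combination its values ran from 4.64 to 5.41, inside the range of LY.

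The gene with the smallest p was also of the cell cycle. Mybl2, a transcription factor of dividing cells, stood at 60.2, 22, 23.1, 11 and 29.72 CPM on LY. The combination gave 8.07, 12, 10.3, 14.8, 14 and 14 CPM. P21 again was the only LY rat within the range of the combination. The log2 fold change was -1.26 ± 0.34 (SE, 95% interval -1.95 to -0.57, unadjusted p = 0.000946, adjusted p = 0.9995, edgeR), and -0.82 without P16. Cdc7, a kinase that starts DNA replication, had a log2 fold change of -0.87, and Fam83d, a protein of the mitotic spindle, of -1.39. For Fam83d the ranges were 10.3 to 24.1 CPM on LY and 4.45 to 8.51 CPM on the combination, without overlap.

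Of the 20 genes with the smallest p among those averaging a log2 CPM of 3 or more, 8 were higher on the combination and 12 lower. Aldh7a1, an aldehyde dehydrogenase, was at 17 to 35.1 CPM on LY and 9.92 to 16.1 CPM on the combination, with a log2 fold change of -0.94 ± 0.28 (SE). Ebpl was at 14.9 to 22.8 CPM on LY and 22.9 to 34 CPM on the combination, and its log2 fold change was 0.56 ± 0.18 (SE). These genes did not overlap between the groups, and neither passed the test over all genes. Some others of the 20 rested on 1 rat. Cd55, which protects cells from complement, was at 1239.6 CPM in P33 and 5.83 to 39.9 CPM elsewhere, and its log2 fold change of 3.22 became -0.44 without P33. Mt1, a metallothionein that binds metal ions, was at 478 CPM in P17 and 41.6 to 117 CPM in the other 10 rats, and its log2 fold change of -1.31 became -0.36 without P17.

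Interferon responses and antigen presentation by MHC class I had medians near 0 over all rats. The 17 interferon-gamma response genes had a median log2 fold change of -0.07 and the 18 type I interferon genes of -0.12. Without P16 the type I median was 0.15, with 13 of 18 above 0, and the interferon-gamma median was 0.07. In the CD45-alone libraries 15 of 17 type I genes were below 0, with a median of -0.80. The 13 MHC class I genes had a median of -0.08, and B2m, the light chain of MHC class I, had an interval of -0.80 to 0.32. Genes of T cell activation had 17 of 21 members above 0 with a median of 0.30, and a median of 0.10 without P35.

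Milk genes stood apart in a single rat. Csn3, a milk casein of secretory mammary epithelium, stood at 428 CPM in P22 and 16.3 to 58.6 CPM in the other LY rats. The combination rats held 5.12 to 115 CPM. Within P22 it was at 1161 CPM in the library of tumour T2 and 41.5 CPM in that of T1. The 7 milk genes had a median log2 fold change of -1.28, of -0.01 without P22, and of 0.81 in batch 3 alone. They summed to 23.4 to 720 CPM on LY and 10.4 to 157 CPM on the combination. The 15 fibroblast and matrix genes did not depend on 1 rat in sign, with medians of -1.20 to -0.54 when each rat was left out. Over all rats they had a median of -0.79 with 12 below 0, and in batch 3 alone a median of -0.04. They summed to 148 to 281 CPM on LY and 62.8 to 782 CPM on the combination. Their part in the other results was not tested.

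Pairs of tumours from 1 rat, found in P19, P22 and P31, differed less than pairs from different rats at the median, with ranges that overlapped. Over the 8249 genes averaging a log2 CPM of 3 or more, the median absolute difference between the 5 pairs of libraries from 1 rat was 0.32 to 0.52 log2 units, with a median of 0.41. The 3 pairs within a batch were all of P31, with a median of 0.41. The 2 pairs across batches, of P19 and P22, had a median of 0.45. For the 44 pairs of different rats on the same treatment the median was 0.49, and for the 56 pairs of different treatments it was 0.48. Pairs of unlike treatment were thus no farther apart than pairs of like treatment, as a description of these libraries. The highest correlation between 2 libraries across these genes was 0.945, so none was a copy of another.

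The effect of adding the antibody was then compared between rats with and without the inhibitor, as (PDL1+LY minus LY) minus (PDL1 minus vehicle). No gene passed an adjusted p of 0.05 (0% called, smallest adjusted p 0.692, edgeR), and DESeq2 and limma voom called 0 genes as well. At an unadjusted p under 0.05 there were 853 genes (7.15%), with 1085 by DESeq2 and 721 by limma voom. Mybl2 had a log2 difference of -1.83 ± 0.46 (SE, unadjusted p = 0.000489, adjusted p = 0.692, edgeR). Its mean was 29.2 ± 18.6 CPM on LY (SD, n = 5), 12.2 ± 2.60 on the combination (n = 6), 25.4 ± 10.6 on antibody alone (n = 5) and 17.1 ± 5.6 on vehicle (n = 8).

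Macrophage genes had the largest difference of this kind among the lists. All 18 tested were above 0 (51.9% of all genes were), 12 of them with an unadjusted p under 0.05 (3.79% of all genes in this direction), and the median log2 difference was 2.63. C1qa, a complement subunit made by macrophages, was at 100.3 ± 88.1 CPM on LY (SD, n = 5), 177 ± 206 on the combination (n = 6), 152 ± 131 on antibody alone (n = 5) and 1023 ± 986 on vehicle (n = 8). The vehicle rats were thus the group apart, and the 3 treated groups were within their spread of each other. Without P33 the median was 1.99, with 6 genes at an unadjusted p under 0.05. Without 2 vehicle libraries that stood apart from the others the median was 2.45. In batch 2 alone it was 3.26 and in batch 3 alone 2.56.

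Tumour measurements of the same rats did not differ beyond their spread. The CD8 fraction in the deposited sample table, whose denominator is not given in the sources used here, was 0.0816, 0.155, 0.0207, 0.0562 and 0.0232 in P16, P17, P19, P21 and P22. It was 0.0801, 0.0130, 0.0328 and 0.0397 in P31, P33, P35 and P36, and no value was given for P23 and P34. The difference of means was -0.0260 (exact two-sided permutation test, p = 0.476, adjusted over 4 measurements p = 0.768). Tumour size was 21.6 ± 13.8 (SD, n = 5) on LY and 20.6 ± 11.8 (SD, n = 6) on the combination, in a unit the table does not state (exact permutation test, p = 0.918). The growth rate was 8.73 ± 12.3 on LY and 3.35 ± 1.71 on the combination (exact permutation test, p = 0.433), with 30 in P16 and 0.242 to 8.76 in the other 10 rats. Without P16 the difference in growth rate of -5.38 was -0.07. The time from NMU to sacrifice was 110.2 ± 42.9 on LY and 130.5 ± 61 on the combination (exact permutation test, p = 0.576).

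The CD8 fraction and Cd8a mRNA could be set side by side in the 8 rats with a CD8 fraction for at least 1 tumour that also has a leukocyte library. The mRNA value is the sum over all leukocyte libraries of a rat, and tumour T1 of P19 and tumour T3 of P31 entered it without a fraction. P17 was not among them, since its fraction of 0.155 is from tumour T1 and its library from T3. Their Pearson correlation on log2 Cd8a was 0.72 (exact permutation test, p = 0.0761, adjusted over 3 relations p = 0.0800) and Spearman's rho was 0.29 (p = 0.501, exact permutation test). P16 and P31, with the highest values of both among the 8, carried this relation. Without them r was -0.58 (exact permutation test, p = 0.244) and rho was -0.71 over 6 rats. The mean of the cytotoxic list gave r = 0.75 and rho = 0.40, and r = -0.45 without these rats. Each batch held too few of these rats for a value of its own.

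**Figure D4:**
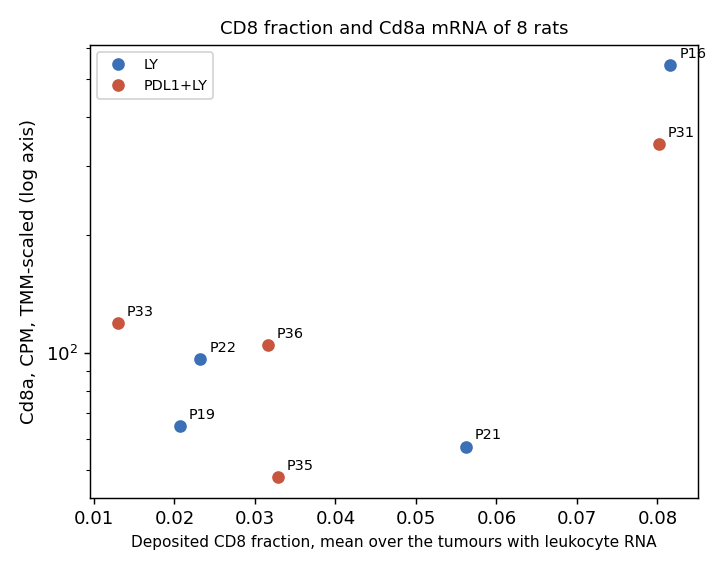
Deposited CD8 fraction (x axis, mean over the tumours of a rat with leukocyte RNA) against Cd8a mRNA (y axis, CPM scaled by TMM, log axis) in 8 rats, coloured by treatment. P16 and P31, of different treatments, are high on both axes. Over the other 6 rats the Pearson correlation is -0.58 (exact permutation test, p = 0.244).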

How the data were processed

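The authors deposited 1 table of whole-number counts per gene symbol. RNA came from collagenase-dissociated tumours and was amplified with the SMARTer v4 kit from less than 10 ng, per the labels' protocols. The submitters' processing notes name STAR, FastQC and rn6. Of the counting tool, the annotation and strand: not given in the sources used here. Near-identical or overlapping genes (RT1 genes, for example) may share reads. CD8 values are a fraction from 0 to 1 in the sample table the authors deposited. A column name gives rat and tumour; the treatment is that of the rat in the labels. 1 column with no name was not used. Depth was 6609198 to 29727437 counts per leukocyte column.

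Leukocyte columns were summed per rat and tested with edgeR 4.0.16 in R 4.3.3 (filterByExpr, TMM, robust quasi-likelihood F test, Benjamini-Hochberg adjustment at 0.05), with the rats of all 4 treatments in 1 fit. Each SE divides the absolute log2 fold change by the root of F, and the 95% interval uses the t quantile of the fit. CPM are scaled by TMM. List levels are means of log2 CPM with a prior count of 2. The fit was tested on simulated data. P-values measure the spread between rats. Counting floors of 3 counts cover counting error only. DESeq2 1.42.0, limma 3.58.1, other scalings, filters, Ptprc thresholds, batch terms and leaving out rats were alternatives. SciPy gave the exact permutation tests.

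Members and lists were chosen with earlier results of these data known. Genes were named by rule: the 20 with the smallest p, the 3 highest members of each list, and 17 fixed genes. Gzmk, C1qa, Smad3, Ccna2, Ccnb2, Mki67, RT1-Ba, RT1-Bb and the genes named for their batch difference were taken beyond it, after their values were seen.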

Additional observations from a re-analysis of the deposited data

Results flagged for a closer look

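In groups of 4 to 6 rats, single rats lay apart from their own group by Dixon's test at 95% in 9 of 98 sets of values. Genes entered as log2 of CPM plus 0.1, so a rat far above the others in CPM need not be flagged. The test was run on the genes and lists printed here, some taken after their values were seen, and the sets share rats. A chance rate of 1 in 20 thus does not apply, and the count does not show an excess. On LY, P17 stood low for Cd4 at 70.8 CPM, P21 stood low for Il1b at 95.2 CPM and for Mki67 at 20.3 CPM, and P22 stood high for Cd55 at 33.05 CPM. The growth rate of P16 stood high at 30. On the combination, P33 stood apart for Tgfbr2 at 8.66 CPM, Cd55 at 1239.6 CPM and Ifng at 1.25 CPM, and P35 stood high for Smad3 at 123 CPM. P33 thus gave 3 of the 4 among the combination rats.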

How the results depend on the processing

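No gene passed in the comparison of PDL1+LY with LY under any of 27 other settings, nor in the difference of the antibody effect under any of 25, which included other scalings, filters, DESeq2, limma voom, batch terms and leaving out each rat; the smallest adjusted p over these was 0.796 and 0.105, both by DESeq2. The second has 2 settings fewer, since rats of the other treatments were lacking. The settings with the batch 3 share as a covariate, each batch alone, without libraries over 14000 genes and without 2 vehicle libraries were chosen after seeing the data. The threshold of 600 CPM removed the same 2 vehicle libraries. Of 130 named genes none passed in any setting, and 95 changed sign in at least 1. Tumour size, -0.961 between the groups, was 0.433 by the largest tumour and 1.09 over all rats of both treatments. Leaving out each rat gave -4.86 to 3.64 for tumour size and -1.20 to 33.5 for the time to sacrifice, which was reversed without P23. No paired analysis was possible because the groups share no replicate numbers. Levels under 0.0859 to 0.274 CPM, which is 3 counts of a rat's total, were not detectable at this depth.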

Other observations

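RT1-Bb, a class II gene of the rat major histocompatibility complex, was near absent in some rats and abundant in others. It was at 442 to 1648 CPM in P16, P22, P31, P35 and P36 and at 0.603 to 6.05 CPM in the other 6 rats. No rat lay between 6.05 and 442 CPM. Tumours of a rat were alike: the 3 libraries of P31 held 230, 632 and 522 CPM, the 2 of P22 held 1767 and 1588 CPM, and the 2 of P19 held 5.48 and 1.61 CPM. High and low rats occurred on both treatments and in both batches. Its partner gene RT1-Ba, which encodes the other chain of that molecule, showed no such gap, at 573 to 9837 CPM in all 11 rats. This pattern was chosen after its values were seen, and its source was not tested.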
